A study of Mus musculus with 9 samples.

Results

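Dazl, Ddx4 and Sycp3 are genes of the mouse germ line, and their DNA methylation was followed here from adult fibroblasts into embryos made from fibroblast nuclei. All CpGs with calls in 3 windows were taken (build mm9): chromosome 17 from 50410000 to 50440000 around Dazl, chromosome 13 from 113380000 to 113450000 around Ddx4, and chromosome 10 from 87915000 to 87940000 around Sycp3. A CpG was kept where at least 5 calls covered it in 6 or more of the 8 samples. This kept 98 of the 185 CpGs with a call in the windows, out of 1151670 CpGs that passed the same filter in the whole data set. Dazl held 56 of them, Ddx4 30 and Sycp3 12. Calls were also summed in tiles of 100 bp, and a tile was called CpG-dense where the authors' deposited density value, which averages over the tile's CpGs how many CpGs lie up to 50 bp away, was 4 or more. The kept CpGs lay in 24 tiles, 18 dense with 87 CpGs and 6 sparse with 11 CpGs.

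The assay was reduced representation bisulfite sequencing: DNA cut by MspI at CCGG sites is treated with bisulfite and sequenced, so that coverage falls on CpG-rich fragments. The fibroblasts (label TT) were grown from tail tips of adult male mice. The embryos (label NTZy14, called NT embryos below) were made from such fibroblasts by nuclear transfer into oocytes of C57/B6 mice whose own nucleus had been removed, activated with SrCl2 in the presence of cytochalasin B and cultured in KSOM medium, and their zona was removed before collection. The nuclear DNA of the embryos is therefore that of the donor fibroblasts, and fertilised embryos, eggs and sperm were not analysed here. Each stage held 4 samples, of which samples 1 and 2 carry the strain label BDF1-CAST and samples 3 and 4 the strain label X1; no mutant allele or transgene is named for any of them. The sources used here do not give what X1 and the digits 14 stand for, how many embryos went into a library, or whether samples came from separate animals or cultures. The p-values below therefore cover only the spread among these samples, which may be technical.

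The product of Dazl is an RNA-binding protein that germ cells need for their development and for translation of germ cell transcripts. Ddx4, also called Vasa or Mvh, encodes an RNA helicase of germ cells with a part in the piRNA pathway. Sycp3 encodes a lateral element protein of the synaptonemal complex, which holds homologous chromosomes together in meiosis. All 3 belong to the genes whose CpG-rich promoters become methylated in somatic cells of the embryo, and that methylation is known to keep them silent outside the germ line.

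The starts of Ddx4 and Dazl were placed on the data by the spacing of CpGs: RefSeq promoter sequences (build GRCm38.p6, from 250 bases before to 50 bases after the start) were slid along each window, and no coordinates were converted between builds. For Ddx4, 34 of 34 covered CpGs fell on a CpG of the sequence at 1 offset, and the next best offset matched 3 of 5. For Dazl, 8 of 8 matched at 1 offset, and the next best matched 4 of 5. The promoter of Sycp3 could not be placed, with 3 of 5 at best, so no sequence is shown for it and no distance from its start is given. The stretches below are the 250 bases before the start of Ddx4, where 21 kept CpGs lie, and the 250 bases before and 30 bases after the start of Dazl. Both genes are on the minus strand, and each line reads 5′ to 3′ along the gene. Capitals mark the kept CpGs in Ddx4 and, in Dazl, where no CpG of the stretch passed the filter, the 5 CpGs with a call in any sample.
Ddx4: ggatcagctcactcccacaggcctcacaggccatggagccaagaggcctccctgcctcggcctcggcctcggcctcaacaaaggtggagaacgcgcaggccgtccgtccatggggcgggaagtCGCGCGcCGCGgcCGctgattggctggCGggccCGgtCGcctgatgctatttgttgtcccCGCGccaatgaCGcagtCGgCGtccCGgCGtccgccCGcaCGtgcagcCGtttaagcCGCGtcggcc
Dazl: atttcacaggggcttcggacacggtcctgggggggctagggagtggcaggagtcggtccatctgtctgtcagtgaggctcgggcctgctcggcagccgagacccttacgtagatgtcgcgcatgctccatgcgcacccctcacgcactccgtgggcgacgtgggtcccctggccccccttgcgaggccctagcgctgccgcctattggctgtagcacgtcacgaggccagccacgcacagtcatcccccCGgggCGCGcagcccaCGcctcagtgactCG

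The fibroblast libraries held 35442175 to 41466097 CpG calls and the NT embryo libraries 25239364 to 30396273, with medians of 15 to 19 and 8 to 12 calls per CpG, which makes the NT embryo values less precise. Fibroblast libraries 1 and 1a are a library and its resequencing and were summed. Over all 52659 CpG-dense tiles that were at 60% or more in the fibroblast mean and lay outside the 3 windows, fibroblasts stood at 84.4% ± 1.37 and NT embryos at 75.02% ± 4.82 (SD, n = 4 each). Those tiles are the background for the dense tiles of the 3 genes.

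The label of these genes as methylated in soma held for Ddx4 and Sycp3 and for part of Dazl. In fibroblasts, the dense tiles stood at 79.2% ± 2.67 at Ddx4 and 77.9% ± 6.86 at Sycp3 (SD, n = 4). At Dazl they stood at 21.3% ± 2.56, and 29 of its 50 kept dense CpGs lie in an unmethylated stretch downstream of the start. In NT embryos the Sycp3 tiles fell to 38.3% ± 17.1, while the levels of 67.1% ± 23.7 at Ddx4 and 18.3% ± 4.55 at Dazl did not differ from fibroblasts beyond the spread between samples. The lower level of NT embryos at Sycp3 was -39.6 points (two-sided exact permutation test over 70 assignments, p = 0.0286, the smallest that 4 against 4 allows). The differences were -12.1 points at Ddx4 (exact permutation p = 0.429; -2.43 points without NT embryo sample 1 and -19.9 without sample 3) and -3.02 points at Dazl (exact permutation p = 0.343). Each p is for 1 value per sample and is not adjusted for the other loci.

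**Figure D1:**
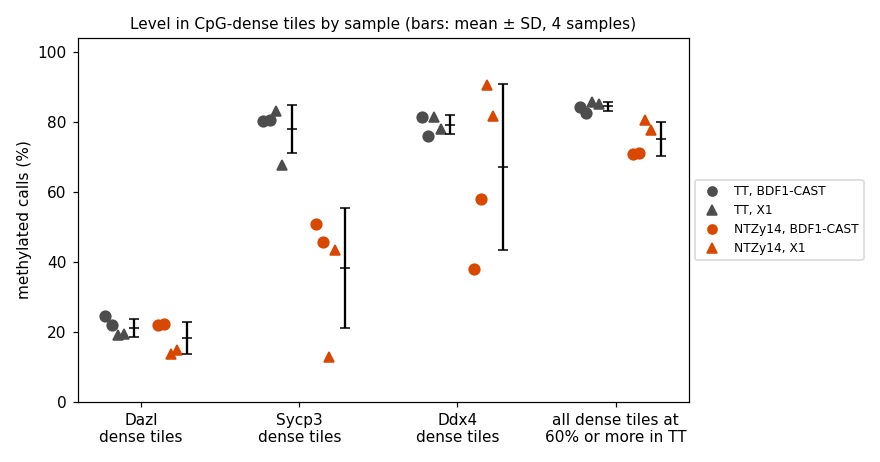
Methylation level (percent of calls methylated, y axis) of the CpG-dense tiles of Dazl, Sycp3 and Ddx4 and of all dense tiles at 60% or more in fibroblasts, with 1 point per sample, circles for BDF1-CAST and triangles for X1, and bars for mean ± SD (n = 4). At Sycp3 the NT embryos, at 13.04 to 51%, lie below all fibroblasts, at 67.8 to 83.1%; at Ddx4 the NT embryos range from 38.1 to 90.6% around fibroblasts at 76.1 to 81.5%.

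Of the 24 tiles, 13 had at least 10 calls in every sample and were tested, 11 of them dense. The test was a quasi-binomial model with stage and strain as terms, its dispersion moderated with limma over all 271481 tiles of the data set. A call needed 20 points or more between the stage means and an adjusted p (Benjamini-Hochberg over all tiles) under 0.05. NT embryos were lower in 2 of the 13 tiles, 1 at Dazl and 1 at Sycp3, and higher in 0. Over all tiles, 3.56% were called, 3.43% lower and 0.133% higher, and among the dense tiles methylated in fibroblasts outside the windows 6.41% were called lower. At an unadjusted p under 0.05, the stage term passed in 5 of the 13 tiles, against 26.3% of all tiles. With limma on arcsine square root levels 0 of the 13 tiles were called and 5899 of all. Every NT embryo sample lay below every fibroblast sample in 2 of the 13 tiles and above in 0, against 11.6% and 0.898% of all tiles and 14.3% lower among the dense methylated tiles. Strain was called in 0 of the 13 tiles, with 4 at an unadjusted p under 0.05, against 0.00921% and 14.5% of all tiles. The product of stage with strain was called in 0, with 2 at an unadjusted p under 0.05, against 0.0% and 6.78% of all tiles.

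The spread between samples differed by stage. The SD between samples was higher in NT embryos than in fibroblasts in 13 of 13 tested tiles, against 68.9% of all tiles and 81.3% of the dense methylated tiles elsewhere. Its median over the 13 tiles was 3.16 points among fibroblasts against 17.8 points among NT embryos; over all tiles the medians were 4.07 and 7.06 points, and over the dense methylated tiles elsewhere 4.53 and 9.33 points. In 3 tiles of the unmethylated stretch of Dazl the NT embryo SD was only 1.74 to 4.62 points. The 4 NT embryo samples spanned more than 50 points in 6 of 13 tiles (46.2%), against 12.8% of all tiles. The stage means were lower in NT embryos in 9 of the 13 tiles (69.2%), with a median change of -3.88 points, against 71.2% and -2.08 points over all tiles. In the 7 tested dense tiles that were methylated in fibroblasts, NT embryos were lower on average in each, by a median of -32.2 points, against 74.4% lower and a median of -5.32 points over the 52659 dense methylated tiles elsewhere. The span of NT embryos exceeded 50 points in 5 of those 7, against 12.6% elsewhere. Tiles that touch share reads and are not independent, and calls per tile were fewer in NT embryos, whose part in the spread was not tested.

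At the kept CpGs of Dazl, methylation in fibroblasts dropped along the gene from nearly complete to nearly absent. Unkept CpGs between the start and 205 bases downstream were mixed. In fibroblast sample 1 those from 50432801 to 50432847 stood at 84.4 to 96.7%. Those from 50432868 to 50432900 stood at 0, from at most 5 calls each, and reached 33.3% in sample 2. Kept CpGs at 492 to 617 bases upstream of the start averaged 90.5 to 100% over the 4 fibroblast samples, and those at 205 to 278 bases downstream averaged 80.6 to 96.9%. CpGs at 357 and 379 bases averaged 62.2 and 67.4%. The step lay between 472 bases, where the mean was 73.7%, and 491 bases, where it was 23.9%, and from 617 to 878 bases downstream the means were 0.0 to 9.35%. NT embryos stayed low farther from this step: the same CpGs from 617 to 878 bases averaged 0.0 to 21.2%. Next to the step, at 491 to 533 bases, fibroblast means were 0.510 to 24.5% and NT embryo means 4.17 to 32.8%. There NT embryo means were higher at 513, 519 and 533 bases and lower at 491, 501 and 528 bases. The largest rise was at 533 bases, from 2.21 to 31%. There NT embryo samples 1 to 4 stood at 3.57, 37.04, 0 and 83.3%, from 28, 27, 15 and 12 calls. They stood at 7.69, 40, 0 and 83.3% at 519 bases and at 0, 44, 0 and 16.7% at 513 bases. The higher means thus came from samples 2 and 4. These single CpGs were not tested. The plot of Dazl CpGs by distance from the start shows the step in each fibroblast sample.

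**Figure D2:**
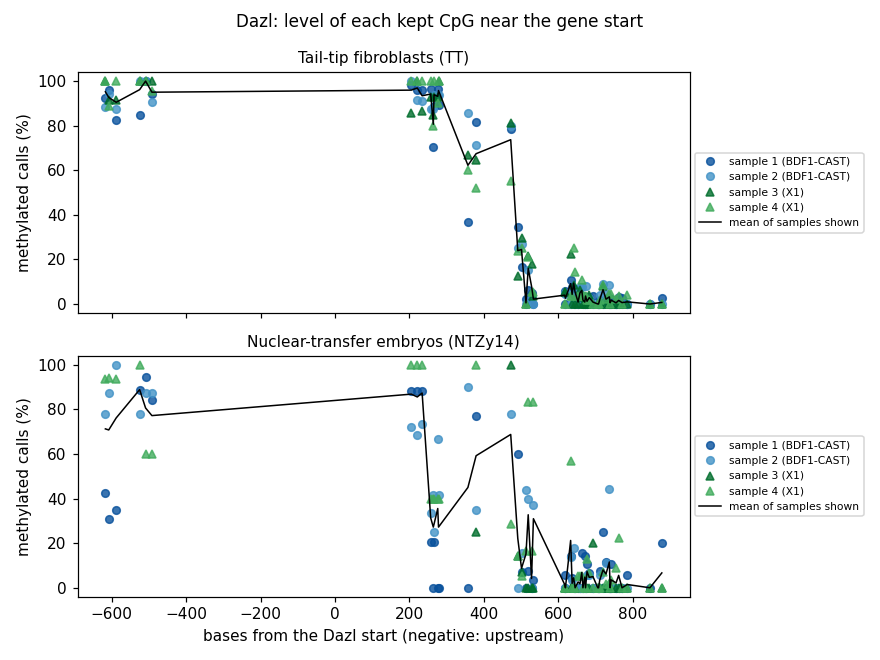
Level of each kept CpG near the Dazl start (y axis, percent of calls methylated; x axis, bases from the start, positive downstream) in the 4 fibroblast samples (upper panel) and the 4 NT embryo samples (lower panel), for CpGs with at least 5 calls in the sample, with a line for the mean of the samples shown. Fibroblasts pass from 73.7% at 472 bases to 23.9% at 491 bases, and most points of NT embryos at 257 to 278 bases lie far below those of fibroblasts.

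The 5 kept CpGs of the dense tile from 50432600 to 50432699 on chromosome 17, at 257 to 278 bases downstream of the Dazl start, carried the larger of the 2 called falls. In fibroblast samples 1 to 4 the tile stood at 88.4, 91.1, 92.8 and 94%, from 138, 79, 69 and 50 calls. In NT embryo samples 1 to 4 it stood at 8.33, 41.7, 80 and 40%, from 144, 60, 15 and 25 calls. Every NT embryo sample lay below every fibroblast sample, and sample 1 was far lower than the rest. The mean fell from 91.6% ± 2.42 to 42.5% ± 29.3 (SD, n = 4), a change of -49.1 points (quasi-binomial test with limma-moderated dispersion, adjusted p = 0.0232). The value of NT embryo sample 1 had a 95% Wilson interval of 4.83 to 14%, and that of sample 3, with its 15 calls, 54.8 to 92.95%. Such intervals cover counting error only, since amplified reads without molecular identifiers are not independent molecules. The 5 CpGs also share reads, which makes the intervals too narrow. NT embryo sample 3 had 3 calls at each of the 5 CpGs and sample 4 had 5. Their 80 and 40% therefore rest on few reads, although the tile passed the minimum in calls. The call was lost without any 1 of the 4 fibroblast samples, with adjusted p between 0.0681 and 0.136 in the same test, and with limma on arcsine square root levels.

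The neighbouring dense tile, from 50432700 to 50432799 with 3 kept CpGs at 205 to 234 bases downstream, was near full methylation in fibroblasts, at 96.7, 93.9, 90.9 and 100%. In NT embryo samples 1, 2 and 4 it was at 88.4, 71.4 and 100%, and sample 3 had 0 calls, so it was not tested. In NT embryo sample 1 the values of adjoining tiles thus ran from 88.4% at 205 to 234 bases to 8.33% at 257 to 278 bases, while fibroblast sample 1 had 96.7 and 88.4%.

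Upstream of Dazl, the dense tile from 50433500 to 50433599, with 3 kept CpGs at 588 to 617 bases before the start, stood at 90.1, 90, 94.4 and 96.3% in fibroblasts. In NT embryo samples 1 to 4 it stood at 36, 87.5, 66.7 and 93.9%. Sample 4 lay within the fibroblast range, sample 2 just under it, and samples 1 and 3 well below. The mean difference of -21.7 points did not pass the test (limma-moderated, adjusted p = 0.103), and without NT embryo sample 1 it was -10.03 points. The dense tile from 50433400 to 50433499, at 492 to 525 bases before the start, stood at 92.9, 96.4, 100 and 97.6% in fibroblasts and at 89.1, 84 and 70% in NT embryo samples 1, 2 and 4. Sample 3 had 0 calls there, and the 3 others lay below all fibroblasts without a test.

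At the Dazl start itself, in the RefSeq window around it, no CpG passed the filter, and the calls present are given as they stand. Fibroblasts had 235 of 255, 47 of 47, 16 of 18 and 45 of 48 calls methylated in samples 1 to 4, or 92.2, 100, 88.9 and 93.8%. NT embryo sample 1 had 0 of 167 calls methylated, which allows a share of up to 1.80% if each call counts alone. These CpGs lie close together and share reads, with at most 28 calls at 1 CpG in that sample, so the limit is too low. Sample 2 had 0 of 6, which allows up to 50%. Part of its calls fell on the CpGs at 50432896 and 50432900, where fibroblast sample 1 was also at 0, from 1 call each. Sample 3 had 66 of 69, or 95.7% (Wilson interval 87.98 to 98.5%), and sample 4 had 0 calls. The capitals in the Dazl sequence are CpGs of this window, and there NT embryo sample 1 was at 0 while sample 3 was within the range of fibroblasts.

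The unmethylated stretch of Dazl covered 4 dense tiles from 50432000 to 50432399, with 29 kept CpGs at 617 to 878 bases downstream. The tile from 50432200 to 50432299, with 18 kept CpGs and 116 to 712 calls per sample, stood at 1.69, 3.37, 1.11 and 3.53% in fibroblasts and at 5.81, 4.02, 1.72 and 2.84% in NT embryos, and the groups overlapped. The other 3 reached at most 8.33% in fibroblasts and 11.2% in NT embryos. At the edge, the tile from 50432400 to 50432499, with 7 kept CpGs at 472 to 533 bases, stood at 15.7, 15.6, 21.3 and 20.4% in fibroblasts and at 5.71, 27.5, 22.01 and 34.6% in NT embryos. Its NT embryos lay on both sides of the fibroblasts, and the difference of 4.21 points did not pass (limma-moderated, adjusted p = 0.677).

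The summed dense level of Dazl, in which the unmethylated tiles weigh by their calls, was 24.6, 22.1, 19.2 and 19.4% in fibroblasts and 22.1, 22.3, 13.8 and 14.96% in NT embryos, with groups that overlapped. With each tile given equal weight the fibroblasts stood at 35.3% and the NT embryos at 24.6%, a difference of -10.7 points (two-sided exact permutation p = 0.0286), a weighting chosen after seeing the data. With only CpGs of at least 5 calls in all 8 samples, which leaves out every kept dense CpG from 278 bases downstream through the start and upstream of it, the dense level was 1.66 points higher in NT embryos (exact permutation p = 0.371).

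Sparse sequence at Dazl amounted to 6 CpGs in 2 tiles. The tile from 50412100 to 50412199, 20751 to 20834 bases downstream of the start, stood at 77.99, 68.7, 84.4 and 78.6% in fibroblasts and at 66.1, 62.7, 78 and 87.3% in NT embryos. The groups overlapped and the difference of -3.88 points did not pass (limma-moderated, adjusted p = 0.434). The other, from 50432500 to 50432599 and 357 to 379 bases downstream, stood at 58.2, 78.6, 65.5 and 54.3% in fibroblasts and at 43.5, 76.2, 34.8 and 55.6% in NT embryos, again with overlap. It had as few as 9 calls in a sample, and with a minimum of 5 calls per tile its difference of -11.6 points did not pass (limma-moderated, adjusted p = 0.896). The dense and the sparse levels of Dazl did not change by amounts that could be told apart, with a difference of -0.156 points between them (exact permutation p = 1).

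At Ddx4, the kept CpGs at 7 to 126 bases before the start were methylated in every fibroblast sample and varied widely among NT embryos. Unkept CpGs farther upstream, from 113442651 to 113442709, stood at 0 to 40% in fibroblast sample 1, from at most 5 calls each. The summed dense level also takes in the CpG at 252 bases and those 57178 to 57415 bases downstream. It stood at 81.4, 76.1, 81.5 and 77.9% in fibroblast samples 1 to 4 and at 38.1, 58.1, 90.6 and 81.7% in NT embryo samples 1 to 4. NT embryo samples 1 and 2 lay below all fibroblasts, and samples 3 and 4 lay above all of them. The spread among NT embryos, an SD of 23.7 points, exceeded the difference of -12.1 points between the means. Relative to all dense methylated tiles, the difference was -2.72 points (exact permutation p = 0.857).

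The dense tile from 113442600 to 113442699 on chromosome 13, with 9 kept CpGs at 89 to 126 bases before the Ddx4 start, had the most calls of any Ddx4 tile, 112 to 475 per sample. In fibroblasts it stood at 82.3, 79.2, 79.7 and 79.3%, a mean of 80.1% ± 1.48 (SD, n = 4). In NT embryo samples 1 to 4 it stood at 18.2, 53.6, 99.3 and 87.5%, with Wilson intervals of 13.4 to 24.1, 46.8 to 60.2, 97.5 to 99.8 and 80.1 to 92.4%. The 9 CpGs share reads, so these intervals are too narrow and serve as a description. Sample 1 was far below the fibroblasts, sample 2 below them, and samples 3 and 4 above every one of them. The mean of 64.6% ± 36.5 was -15.5 points from that of fibroblasts, which did not pass the test (limma-moderated, adjusted p = 0.413); it was 0.00303 points without NT embryo sample 1 and -27.04 without sample 3. In the printed Ddx4 sequence these CpGs are the first 9 in capitals.

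Nearer to the start, the dense tile from 113442500 to 113442599 holds 12 kept CpGs at 7 to 66 bases before it, the last 12 in capitals. It stood at 81.1, 68.99, 84.5 and 74.1% in fibroblasts and at 71.4, 60.3, 90.8 and 75% in NT embryos. NT embryo samples 1 and 2 were much closer to the fibroblasts here than in the tile farther upstream, and sample 3 was again above all of them. The difference of -2.78 points did not pass (limma-moderated, adjusted p = 0.698); without resequencing 1a it was -18.1 points (adjusted p = 0.291), and without NT embryo sample 2 it was 1.92 points. NT embryo sample 1 thus stood at 71.4% in 84 calls within 66 bases of the start and at 18.2% in 198 calls farther upstream.

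**Figure D3:**
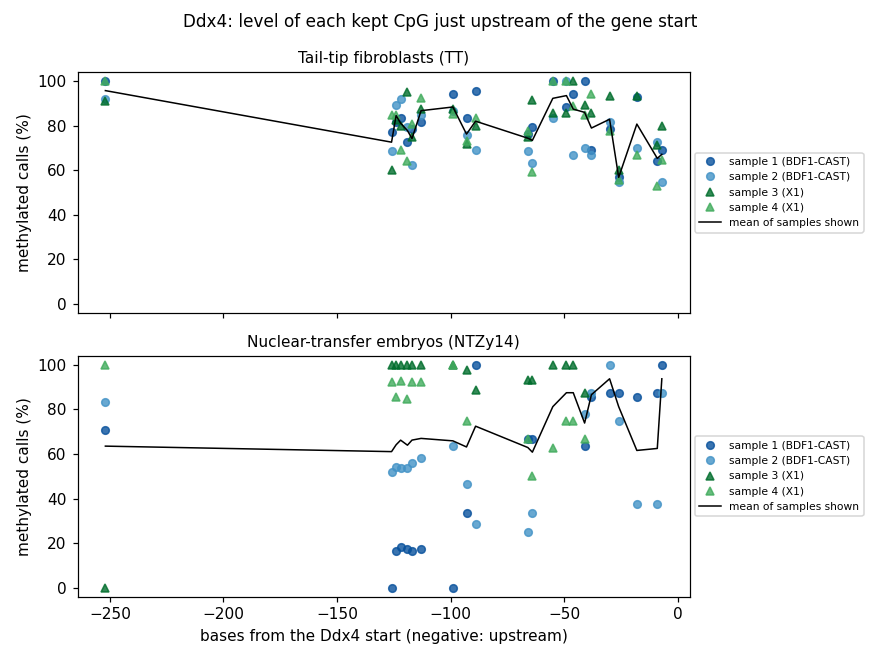
Level of each kept CpG before the Ddx4 start (y axis, percent of calls methylated; x axis, bases from the start, negative upstream) in fibroblasts (upper panel) and NT embryos (lower panel), for CpGs with at least 5 calls in the sample, with a line for the mean of the samples shown. At 113 to 126 bases upstream the NT embryo samples separate into 4 levels, while fibroblasts stay together; the tile that holds these CpGs stood at 18.2, 53.6, 99.3 and 87.5% in NT embryos.

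A single CpG at 252 bases before the Ddx4 start, in the dense tile from 113442700 to 113442799, did not follow the same samples. It stood at 100, 92, 90.9 and 100% in fibroblasts and at 70.8, 83.3, 0 and 100% in NT embryos. Here NT embryo sample 3 was the low one, with 0 of 23 calls methylated, which allows up to 13.04%, although it was at 99.3% in the tile at 89 to 126 bases. The difference of -32.2 points did not pass (limma-moderated, adjusted p = 0.158), and without NT embryo sample 3 it was -11.01 points.

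The 2 other dense tiles of Ddx4 lie 57178 to 57415 bases downstream of its start and fell short of 10 calls in some NT embryos. The tile from 113385100 to 113385199 stood at 76.9, 72.7, 100 and 83.3% in fibroblasts and at 77.8, 55.6, 100 and 62.5% in NT embryos, where it had 8 to 24 calls; with a minimum of 5 calls per tile the difference of -9.29 points did not pass (limma-moderated, adjusted p = 0.883). The tile from 113385300 to 113385399 stood at 71.2, 63.2, 64.1 and 65.5% in fibroblasts and at 37.5, 0, 65.4 and 73.9% in NT embryos, with 2 calls in sample 2, and was not tested. The groups overlapped in both tiles.

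The sparse tiles of Ddx4 held 5 CpGs and stood lower than its promoter in fibroblasts. Their summed level was 58.2, 49.02, 55.97 and 60.2% in fibroblasts and 19.5, 50, 41.1 and 38.6% in NT embryos, where only sample 2 overlapped the fibroblasts. The difference of -18.5 points missed the threshold (exact permutation p = 0.0571), and the dense and sparse levels did not change by amounts that could be told apart (6.44 points, exact permutation p = 0.486). By tile, only the mean of 113446600, which holds 1 kept CpG, was lower in NT embryos, by -37.7 points. The means of tiles 113381500, 113446500 and 113446800 were higher, by 7.65, 2.53 and 6.72 points. Among these tiles, the one tested, from 113446500 to 113446599 and 4038 bases before the start, stood at 65.1, 41.3, 59.5 and 69.8% in fibroblasts and at 0, 66.7, 89.6 and 89.5% in NT embryos. Its NT embryo sample 1 had 0 of 25 calls methylated, which allows up to 12%, and the other 3 samples were within or above the fibroblast range (difference 2.53 points, limma-moderated, adjusted p = 0.996). A CpG 4178 bases before the start, named after its values were seen, stood at 55.2, 54.7, 46.1 and 53.5% in fibroblasts and at 11.9, 25, 0 and 21.6% in NT embryos. The groups did not overlap there, and it was left untested by the coverage minimum because NT embryo sample 2 had 8 calls; with a minimum of 5 calls per tile it was called (limma-moderated quasi-binomial test, adjusted p = 0.0433). In the remaining 2 sparse tiles, from 113381500 to 113381599 and from 113446800 to 113446899, fibroblasts spanned 20 to 77.3% and 35 to 70.7%, NT embryos lay at 40 to 80% and 50 to 78.6%, and the groups overlapped.

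At Sycp3, all kept CpGs lay in 4 dense tiles within a stretch of chromosome 10 from 87922300 to 87922799. Over the samples with at least 5 calls at a CpG, 2 to 4 of them in NT embryos, each of the 12 CpGs had a lower mean in NT embryos. At Ddx4 22 of 30 kept CpGs were lower and 8 higher, and at Dazl 34 of 56 were lower, 19 higher and 3 equal. The share over all single CpGs was not computed. By tile, 71.2% of all tiles were lower, and 74.4% of the dense methylated tiles elsewhere. Neighbouring CpGs share reads, so these counts are not of independent values. Fibroblast means of the 12 CpGs ran from 56.1 to 95.3%, and NT embryo means from 11.3 to 75%. The summed level was 80.2, 80.4, 83.1 and 67.8% in fibroblast samples 1 to 4 and 51, 45.6, 13.04 and 43.4% in NT embryo samples 1 to 4. The groups did not overlap, and NT embryo sample 3, with 69 calls in all, was the lowest.

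The fall at Sycp3 was also larger than the mean change of other dense methylated sequence, where the change of single tiles had a 5th percentile of -40.2 points. Relative to the level of all dense methylated tiles in the same sample, fibroblasts stood at -3.96, -2.18, -2.62 and -17.3 points and NT embryos at -19.8, -25.5, -67.4 and -34.4 points. The groups did not overlap, and the difference was -30.2 points (two-sided exact permutation p = 0.0286). Without any 1 sample the fall at Sycp3 ran from -43.9 to -31.2 points and the relative one from -35.9 to -20.04 points, each at the smallest p that 4 against 3 allows (exact permutation p = 0.0571). With only CpGs of at least 5 calls in all 8 samples, of which 3 remained, the fall was -48.8 points and its exact permutation p was 0.0571. The relative fall lost its call as well with those CpGs (exact permutation p = 0.143), with CpGs weighted equally (p = 0.0857) and with dense set at a density of 6 (p = 0.0571).

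The Sycp3 tile with the most calls, from 87922400 to 87922499 with 6 kept CpGs, was called. It stood at 83.5, 77.6, 86.1 and 76.7% in fibroblasts, from 85 to 212 calls, and at 50.5, 40, 23.5 and 65.8% in NT embryos, from 103, 70, 17 and 79 calls. All NT embryos were below all fibroblasts, with sample 3 lowest and sample 4 nearest to the fibroblasts. The mean fell from 80.99% ± 4.53 to 44.96% ± 17.8 (SD, n = 4), a change of -36.03 points (quasi-binomial test with limma-moderated dispersion, adjusted p = 0.0390). In the same test the call was lost without any 1 fibroblast sample and without NT embryo sample 1 or 2, at adjusted p from 0.0746 to 0.173, without resequencing 1a (adjusted p = 0.0618), and with limma on arcsine square root levels.

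Beside it, the 1 kept CpG of the tile from 87922300 to 87922399 stood at 82.5, 70, 100 and 83.3% in fibroblasts and at 5, 30.8, 50 and 0% in NT embryos. The groups did not overlap, but coverage of 6 to 40 calls per sample left it untested; with a minimum of 5 calls per tile it was called (limma-moderated quasi-binomial test, adjusted p = 0.0351). The tile from 87922500 to 87922599, with 3 kept CpGs, stood at 61.2, 62.2, 77.8 and 67.1% in fibroblasts and at 10, 36.6, 25 and 76.9% in NT embryos, where sample 4 lay within the fibroblast range. NT embryo sample 3 had 8 calls in it; with a minimum of 5 calls per tile the difference of -29.9 points did not pass (limma-moderated, adjusted p = 0.191).

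In the last Sycp3 tile, from 87922700 to 87922799 with 2 kept CpGs, both NT embryo samples labelled X1 were at 0. It stood at 84.8, 100, 81.1 and 53.2% in fibroblasts and at 82.5, 62.1, 0 and 0% in NT embryos. Samples 3 and 4 had 0 of 38 and 0 of 55 calls methylated, which allows up to 7.89 and 5.45% if each call counts alone. The 2 CpGs lie close together and share reads, with 19 calls each in sample 3 and 27 and 28 in sample 4, so these limits are too low. NT embryo sample 1 lay within the fibroblast range. The stage difference of -43.7 points did not pass (limma-moderated, adjusted p = 0.111). Neither did the strain term (limma-moderated, adjusted p = 0.255) nor the product of stage with strain (limma-moderated, adjusted p = 0.667).

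**Figure D4:**
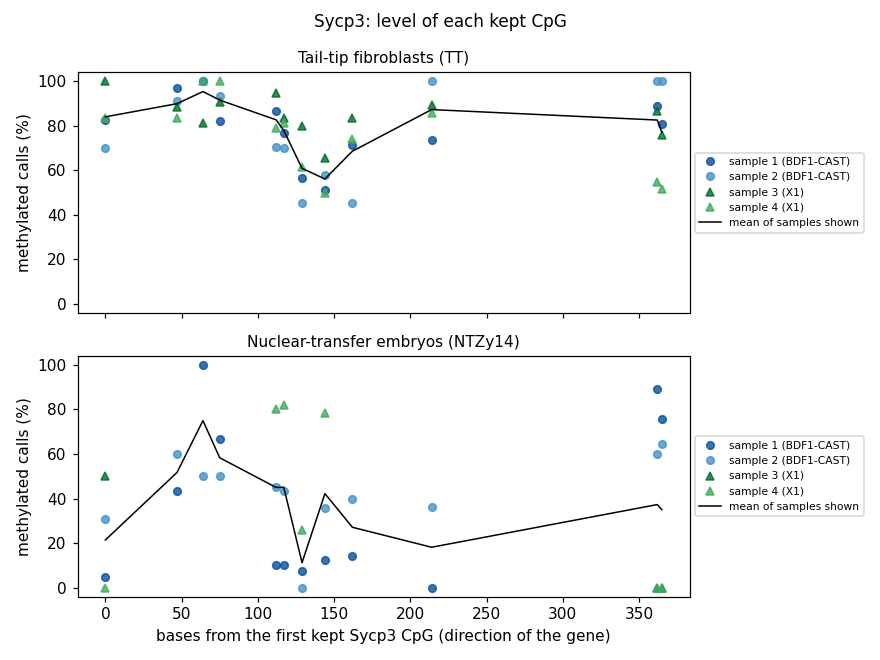
Level of each of the 12 kept Sycp3 CpGs (y axis, percent of calls methylated; x axis, bases from the first kept CpG) in fibroblasts (upper panel) and NT embryos (lower panel), for CpGs with at least 5 calls in the sample, with a line for the mean of the samples shown. Fibroblast means lie between 56.1 and 95.3% and NT embryo means between 11.3 and 75%; in the last tile NT embryo samples 3 and 4 are at 0.

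The strain labels went with different NT embryo levels in part of Ddx4. The dense level changed by -30.7 points between the 2 BDF1-CAST samples of each stage and by 6.44 points between the 2 X1 samples, and this difference of summed levels was not tested. In the tile from 113442600 to 113442699, BDF1-CAST went from 80.8 to 35.9% and X1 from 79.5 to 93.4%, and the product of stage with strain did not pass (limma-moderated, adjusted p = 0.585). In BDF1-CAST and X1, Ddx4 tile 113442500 changed by -9.17 and 3.62 points and tile 113385300 by -48.4 and 4.84. Tile 113385100 fell in both, by -8.16 and -10.4 points, and tile 113442700 fell more in X1, by -18.9 and -45.5. The summed sparse level of Ddx4 changed alike, by -18.9 points in BDF1-CAST and -18.2 in X1. At Sycp3 the dense level changed by -32.01 points in BDF1-CAST and by -47.3 points in X1, and at Dazl by -1.14 and -4.90 points. In all dense methylated tiles NT embryos of BDF1-CAST were at 70.8 and 71.1% and those of X1 at 80.4 and 77.7%. X1 libraries covered 1376884 to 1596888 CpGs and BDF1-CAST libraries 1746590 to 1886972, so strain and library coverage cannot be told apart.

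No NT embryo sample was the lowest everywhere. Sample 1 was lowest at the called Dazl tile and in the summed dense level of Ddx4, sample 3 in the summed dense level of Sycp3 and at the CpG 252 bases before the Ddx4 start, and samples 3 and 4 were both at 0 in the last Sycp3 tile. Sample 3, at 13.04% at Sycp3, was at 90.6% in the dense tiles of Ddx4 and at 95.7% at the Dazl start.

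The letters CACGTG, an E-box that reads the same on both strands, were searched in the RefSeq promoters, since proteins known to repress germline genes in embryonic cells bind it. They occur 2 times in that of Sycp3, at 64 and 43 bases before the start, 1 time in that of Ddx4, at 29 bases, and 0 times in that of Dazl; 7.15% of 32851 RefSeq promoters of the same length hold them. The CpG inside the match of Ddx4 was kept and stood at 57.1, 54.5, 60 and 55.6% in fibroblasts, from 11 to 18 calls. Of the kept CpGs within 252 bases before the start it had the lowest fibroblast mean, 56.8%. In NT embryos it was at 87.5, 75, 100 and 100%, all above the fibroblasts, but from 8, 8, 1 and 4 calls, and this CpG was not tested alone.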

How the data were processed

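The 9 libraries are reduced representation bisulfite libraries, and the authors deposited for each a list of CpGs with the count of calls and the count of methylated calls (build mm9 per the submitters' processing notes; aligner and caller not given in the sources used here). A second table that the authors deposited gives methylation per 100 bp tile as a fraction, with a CpG density score per tile. Its fractions served as a check, and 167 of 167 values in the 3 windows lay within 0.001 of those recomputed; 19 of its sample columns were not used. Libraries 1 and 1a were summed, since the deposited description marks 1a as a resequencing.

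Levels are methylated calls over all calls, summed over kept CpGs. Stages were compared by two-sided exact permutation tests over samples. The 271481 tiles that had 10 or more calls in each sample were fitted with a quasi-binomial logistic model, stage and strain as terms, and adjusted by Benjamini-Hochberg. Its dispersion, never under 1, was moderated by squeezeVar (limma 3.58.1, R 4.3.3), and the model was tested on simulated data. The rest used scipy 1.17.1, pandas 2.3.3 and numpy 2.4.6 under Python 3.11.15. Intervals are 95% Wilson intervals, and the limit for a value of 0 is 3 calls of the total. Both count calls, as does the minimum of 10 calls per tile. Where CpGs share reads, the intervals are too narrow and the limits too low. Named with values are all dense tiles, called tiles, and in each locus the tested sparse tiles with the largest fall and rise; others are said to be named after their values were seen. The genes, lists and alternatives were chosen with earlier results of these data known. Other germline genes were not analysed here, since no annotation of build mm9 was used. Alternatives covered call minimums, weighting, library 1a, density limits, the model, the replicate block and each left-out sample.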

Additional observations from a re-analysis of the deposited data

Results flagged for a closer look

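Samples that stood far from the rest of their group were looked for in 69 groups of 4 values, of which chance would mark about 1 in 20, and 5 were found. Relative to all dense methylated tiles, Sycp3 in fibroblast sample 4 stood at -17.3 points, against -3.96 to -2.18 points in the other fibroblasts. In the Ddx4 tile from 113442600 to 113442699 fibroblast sample 1 was at 82.3% and the others at 79.2 to 79.7%. The other 3 were near 0: at Dazl, the tile from 50432000 to 50432099 was at 1.37% in fibroblast sample 1 and at 7.69% in NT embryo sample 1, with the other samples of each group at 0, and the tile from 50432100 to 50432199 was at 7.85% in NT embryo sample 4, against 0 to 1.25% in the others. The 1.37 and 7.69% are 1 methylated call of 73 and of 13. With the other samples of a group at 0, this rule marks any methylated call.

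Each NT embryo sample was also set against the fibroblast mean of its strain label. The set held 36 values, and tiles where an NT embryo sample had 0 calls were left out of this comparison. A value was marked where both samples of 1 label lay below that mean and both of the other above it. This marked 6 values, all at Ddx4, with both samples of BDF1-CAST below the mean and both of X1 above it. The changes of BDF1-CAST and X1 lay 37.1 points apart for the dense level (-30.7 and 6.44), 36.5 points for the dense level minus the sparse one (-11.8 and 24.7) and 31.04 points for the dense level minus that of all dense methylated tiles (-18.2 and 12.8). They lay 58.8 points apart in the tile from 113442600 to 113442699 (-44.9 and 13.9), 53.3 points in the tile from 113385300 to 113385399 (-48.4 and 4.84) and 28.6 points in the tile from 113446800 to 113446899 (-7.59 and 21.03). In each of the last 2 of these tiles, NT embryo sample 2 had only 2 calls. These differences between strain labels were not tested, apart from the first of the tiles, where the product of stage with strain had adjusted p = 0.585 (limma-moderated quasi-binomial test). The marked values are not separate results. The dense level enters each of the summed values and takes in the dense tiles among those listed. How many values chance would mark by this rule was not computed.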

How the results depend on the processing

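The fall at Sycp3 kept its direction in every alternative run, but not its p. With at least 10 calls in all 8 samples, which left 2 CpGs, the fall was -43.7 points (exact permutation p = 0.171). With 5 calls, which left 3 CpGs, it was -48.8 (exact permutation p = 0.0571). Relative to all dense methylated tiles it was then -34.3 and -39.4 points (exact permutation p = 0.257 and 0.143), -40.5 with CpGs weighted equally (p = 0.0857), and -29.5 with dense set at a density of 6 (p = 0.0571). Without any 1 sample these falls ran from -43.9 to -31.2 and from -35.9 to -20.04 points. At Dazl the direction of the summed levels did not hold, while the called tile from 50432600 to 50432699 stayed lower in all its alternatives (-61.6 to -37.7 points without any 1 sample). The difference over all its kept CpGs was 0.949 points with 5 calls in all 8 samples, 1.90 with 10 calls, 1.72 with CpGs weighted equally and -9.97 (exact permutation p = 0.0286) with tiles weighted equally, and that of its dense tiles 1.66, 2.32, 2.50 and -10.7 (exact permutation p = 0.0286). Its dense minus sparse difference was 7.11, 8.89 and 7.81 points in the first 3 of these, 1.05 with library 1a without 1, 10.7 with dense set at 6, and -4.61 to 5.54 without any 1 sample. Relative to all dense methylated tiles Dazl was at 11.1 points (exact permutation p = 0.0286) with 5 calls in all 8 samples and at -1.31 with tiles weighted equally. Without NT embryo sample 1 its sparse tiles were at 0.319, in a range of -7.46 to 0.319. At Ddx4, 10 calls in all 8 samples left 1 sparse CpG. That gave 2.53 points for the sparse tiles and -18.4 for dense minus sparse, and dense set at 3 gave 0.104 relative to all dense methylated tiles. Without any 1 sample these last 2 ran from -0.122 to 13.7 and from -8.74 to 5.55. The cause of these changes was not tested.

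Of the tile calls, 4 were called at the 3 genes with 5 calls per tile, 0 with 20 calls, 0 under limma on arcsine square root levels, 1 without library 1a, and 0 to 2 without any 1 sample. Over all tiles the stage count was 14674, 4402 and 5899 in the first 3 of these. It was 0 without fibroblast sample 1 or 2, 1563 and 1498 without fibroblast sample 3 or 4, 5213 and 5067 without NT embryo sample 1 or 2, and up to 11625 otherwise. The strain count of 25 became 12 at 5 calls, 46 without the CpG filter, 5 with limma, 12 without a covariate, 8 without library 1a, 43 with no minimum difference and 0 without any 1 sample, and that limma fit called the product of stage with strain in 2 tiles. Uncalled tiles changed sign without 1 sample in 8 cases: Dazl tile 50432100 without NT embryo sample 4 (-0.458 points, in a range of -0.458 to 2.16 over left-out samples), tile 50432300 without fibroblast sample 3 or NT embryo sample 3 (0.579 and 1.63, range -2.11 to 1.63), Ddx4 tile 113442500 without NT embryo sample 2 (1.92, range -8.24 to 1.92), tile 113442600 without NT embryo sample 1 (0.00303, range -27.04 to 0.00303), and tile 113446500 without fibroblast sample 2 or NT embryo sample 3 or 4 (-3.34, -6.86 and -6.82, range -6.86 to 23.01).

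Whether sample numbers pair the stages could not be told. The deviations of same-numbered samples from their stage mean correlated at 0.0999, 0.0933, 0.162 and 0.0335 over 172412 tiles, and not every sample correlated best with its own number. Strain was not taken out of these deviations. Pairs of 1 strain label correlated positively and pairs across labels negatively, such as fibroblast sample 1 with NT embryo sample 2 (0.116) and sample 3 (-0.109). In the replicate block the Sycp3 fall of -39.6 points and its relative fall of -30.2 points each reached the smallest p that an exact sign-flip permutation test over 4 pairs can give, which is over 0.05. The block fit called 0 tiles, in the 3 genes and over all tiles, with 52185 at an unadjusted p under 0.05. Coverage limited 11 of the 24 tiles, which had under 10 calls in some sample, most often an NT embryo.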
